A study of Mus musculus with 9 samples.

Results

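Transcript levels in HL-1 cells exposed to ivermectin were set directly against those in HL-1 cells exposed to importazole. The 6 libraries were chosen by their labels, 3 that name ivermectin and 3 that name importazole, out of 9 libraries in the study. The 3 libraries left out were vehicle controls, which did not enter the tests reported here and are given as a background level. HL-1 is an immortalised line from mouse atrial cardiomyocytes, so each group is a single cell line without the other cells of a heart. The groups were 5 µM ivermectin, 10 µM importazole and 0.1% DMSO vehicle, each for 24 h, in cells grown in Claycomb medium. The DMSO content of the compound groups and the origin of the libraries (1 culture or several) are not in the labels, so the spread between libraries of a group may be technical and p-values refer to that spread alone. The compounds are not structural relatives and each was given at 1 dose, so the part of a difference due to the compound and that due to its dose cannot be told apart.

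Ivermectin, a drug against parasites, serves as a laboratory inhibitor of the import of proteins into the nucleus by importin α/β, and importazole is a small molecule that blocks importin-β. Importins bind a cargo protein in the cytoplasm, pass the nuclear pore and release the cargo when Ran-GTP binds. Many transcription factors are cargoes, among them the sterol-regulated factor SREBP-2, which importin-β binds directly. When membrane cholesterol runs low, SCAP carries SREBP-2 from the endoplasmic reticulum to the Golgi, where proteases free the part that enters the nucleus and raises transcription of genes for cholesterol synthesis and uptake. The oxygen-regulated factor HIF-1 is controlled by prolyl hydroxylases that mark its α subunit for degradation by VHL, and it raises transcription of genes for glycolysis, oxygen supply and mitophagy. These statements are background and were not tested here.

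Levels are given in FPKM (fragments corrected for transcript length and for the total mapped), in the order of replicates 1, 2 and 3. Differences are ivermectin minus importazole in log2(FPKM + 1), with the standard error (SE), so a negative value means a lower level with ivermectin. This scale understates the change of genes with low levels. Gene positions are those of GENCODE M21 on GRCm38. A gene was said to differ when limma's adjusted p, corrected over all genes tested, was under 0.05. Of 25175 gene symbols, 11203 reached 1 FPKM in at least 3 of the 6 libraries and were tested. The 6 libraries each had 11000 to 11048 genes at 1 FPKM or more, and their summed FPKM ranged from 392482 to 410439. Their depth relative to ivermectin replicate 1, read from the ratios of low values between libraries, was 1.266 and 1.602 in the other ivermectin libraries and 1.383 to 1.651 in the importazole libraries. Ivermectin replicate 3 stood apart from the others of its group. Its log2 levels correlated at 0.984 and 0.985 with ivermectin replicates 1 and 2, which correlated at 0.991 with each other. The correlations of ivermectin replicate 2 with the importazole libraries were 0.987 to 0.989. Ivermectin replicate 3 also listed Yam1 at 0, as did vehicle replicate 2. The levels of Yam1 were 41567, 35029.9 and 0 FPKM with ivermectin and 24051 to 27382 FPKM with importazole. All 13 cardiomyocyte markers were present, with a summed level of 6818 to 7362 FPKM with ivermectin and 7403 to 7932 FPKM with importazole. Among markers of other cell types, 2 of 9 fibroblast, 2 of 7 endothelial, 1 of 5 macrophage, 3 of 5 smooth muscle and 1 of 4 skeletal muscle genes reached 1 FPKM in any of the 6 libraries, and 0 of these markers differed between the compounds. Some of them were not low. Smooth muscle markers summed to 1186 to 1306 FPKM with ivermectin and 1200 to 1315 FPKM with importazole. Acta2 alone had 1020 to 1145 FPKM over the 6 libraries, and the fibroblast marker Ddr2 had 32.5 to 36.8 FPKM.

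The compounds differed in 300 of the 11203 genes tested, or 2.68%. Of these, 250 were lower with ivermectin (2.23% of genes tested) and 50 were higher (0.446%). In all 300 the 3 libraries of a compound lay apart from the 3 of the other. That separation alone was common: it was met in the lower direction by 16.2% of genes tested and in the higher direction by 8.04%. A difference of at least 1 on the log2 scale was reached by 42 of the lower genes and by 1 of the higher genes. That gene, the small RNA Mir3082, met the filter of 1 FPKM only through the ivermectin libraries, so its gap is not independent of the filter. The median difference over all genes tested was -0.0266. With quantile normalization the counts were 215 lower and 105 higher, and with median-of-ratios scaling 227 lower and 92 higher, so the share of lower genes was 67.2% and 71.2% in place of 83.3%. The number of genes that differed fell to 172 without ivermectin replicate 1, 191 without ivermectin replicate 2, 138 without importazole replicate 1, 134 without importazole replicate 2 and 149 without importazole replicate 3. It was 302 without ivermectin replicate 3, of which 235 were among the 300. Without that library, which lists Yam1 at 0, the lists described below gave 18 lower genes for cholesterol synthesis, 11 for fatty acid synthesis, 19 for hypoxia and 13 for glycolysis, and 9 higher mitochondrial mRNAs. With all libraries these counts were 17, 11, 19, 13 and 9.

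Set beside vehicle, 195 of the 250 lower genes had all 3 ivermectin libraries below all 3 vehicle libraries, which held for 12.1% of genes tested. For the importazole libraries, 116 of the 250 lay wholly above vehicle (16.7% of genes tested) and 9 wholly below (6.91%). Among the 50 higher genes, 32 had the ivermectin libraries wholly above vehicle (12.6% of genes tested) and 26 had the importazole libraries wholly below it. Both sets of counts use the same 3 vehicle libraries. The lower genes were led by enzymes of cholesterol synthesis and by genes known to be induced by low oxygen, and the higher genes by transcripts of the mitochondrial genome.

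**Figure D1:**
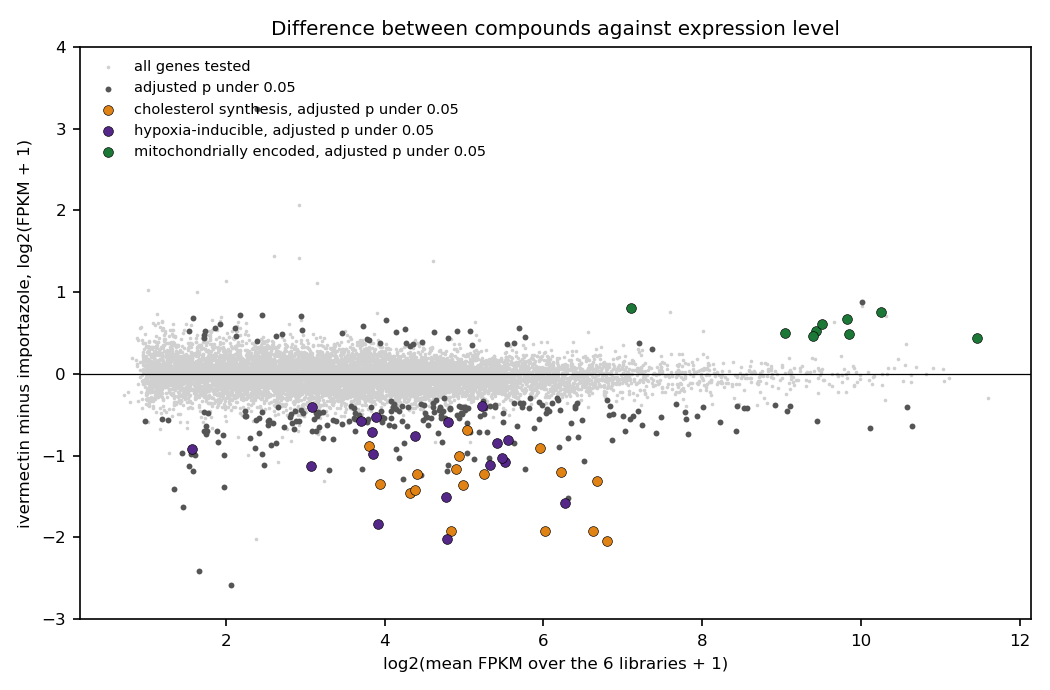
Each point is 1 of the genes tested, with its mean level over the 6 libraries on the horizontal axis, as log2(FPKM + 1), and the difference between the compounds on the vertical axis. Dark points passed the threshold, and coloured points are called members of 3 gene lists. The 17 cholesterol synthesis genes and 19 hypoxia-inducible genes lie below 0, and the 9 mitochondrially encoded transcripts lie above 0 at high levels (Yam1 is not drawn).

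Cholesterol synthesis was lower with ivermectin than with importazole along nearly the whole pathway. Of 19 enzyme genes tested, 17 were lower and 0 higher, against 2.23% and 0.446% of all genes tested. Their median difference was -1.23. The others, Tm7sf2 and Ebp, did not pass the threshold. In bulk RNA such as this, fewer cells that express a gene and less of its RNA per cell cannot be told apart. The list is described by counts alone, since it was chosen with earlier results of these data known.

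The mevalonate steps, which turn acetyl-CoA into the isoprenoid unit farnesyl diphosphate, were lower in all 7 genes tested. Hmgcs1, which encodes HMG-CoA synthase, had 17.1, 17.1 and 16.4 FPKM with ivermectin and 44.8, 45.2 and 44.7 FPKM with importazole, beside 23.3, 23.6 and 26.6 FPKM in vehicle. Each ivermectin library was below each vehicle library, and each importazole library was above them. The difference was -1.36 (SE 0.06, adjusted p = 8.56e-06).

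The largest difference of the pathway, and of the 15 named lower genes, was in Fdps (chr3:89093588-89101959, minus strand), the gene of farnesyl diphosphate synthase. Its levels were 39.4, 42.7 and 45.9 FPKM with ivermectin, 69.1, 69.3 and 66.2 FPKM in vehicle and 183, 174 and 179 FPKM with importazole. The 3 groups did not overlap, and the spread within each was small beside the gaps between them. The difference was -2.04 (SE 0.07, adjusted p = 3.78e-06). Idi1, the isomerase that makes the activated isoprene unit used by Fdps, had 9.47, 10.4 and 13.1 FPKM with ivermectin and 41.9, 44.95 and 45.2 FPKM with importazole, a difference of -1.92 (SE 0.11, adjusted p = 2.7e-05). The thiolase gene Acat2, the kinase gene Mvk and the kinase gene Pmvk differed by -1.22, -1.01 and -0.69 (adjusted p = 8.09e-05, 0.00195 and 0.00186). Acat2 has the near-identical neighbour Acat3, so the share of fragments counted to each is uncertain.

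From squalene to cholesterol, 10 of 12 genes were lower with ivermectin. Fdft1 and Sqle, which make and oxidise squalene, differed by -1.46 (SE 0.07) and -1.199 (SE 0.06), with adjusted p-values of 9.62e-06 and 1.35e-05. Sqle stood at 42.96, 44.3 and 45.5 FPKM with ivermectin and at 101, 101 and 106 FPKM with importazole. Cyp51 (chr5:4081145-4104746, minus strand), the lanosterol demethylase, had 34.9, 42.7 and 42.8 FPKM with ivermectin, 63.003, 67.1 and 66.03 FPKM in vehicle and 155, 145 and 165 FPKM with importazole. Its ivermectin libraries were the lowest and its importazole libraries the highest of the 9. The difference was -1.93 (SE 0.09, adjusted p = 9.62e-06). Msmo1, the sterol methyl oxidase that acts after Cyp51, had 20.6, 24.8 and 34.3 FPKM with ivermectin and 98.9, 105 and 100.3 FPKM with importazole. Ivermectin replicate 3 was the highest of its group but lay far below the importazole libraries, and the difference was -1.92 (SE 0.15, adjusted p = 0.000227).

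Lss, which closes the sterol ring ahead of Cyp51, differed by -1.35. Of the later steps, Nsdhl, Hsd17b7, Sc5d and Dhcr7, which remodel the ring on the way to cholesterol, differed by -1.41, -0.88, -0.91 and -1.17. Ebp, the sterol isomerase between these enzymes, had 16.7, 17.1 and 21.5 FPKM with ivermectin and 24.2, 21.9 and 23.9 FPKM with importazole. Its groups did not overlap, yet its difference of -0.33 (95% interval -0.56 to -0.10) missed the threshold (adjusted p = 0.128), and it passed without ivermectin replicate 3 (adjusted p = 0.0228). Tm7sf2, a sterol reductase with a second enzyme for the same step, was at 1.09 to 1.57 FPKM with ivermectin and 1.09 to 2.38 FPKM with importazole, and these ranges overlapped. Fdft1 and Cyp51 share exon sequence with a gene on the opposite strand, and without strand information their fragments cannot be separated from that gene's.

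**Figure D2:**
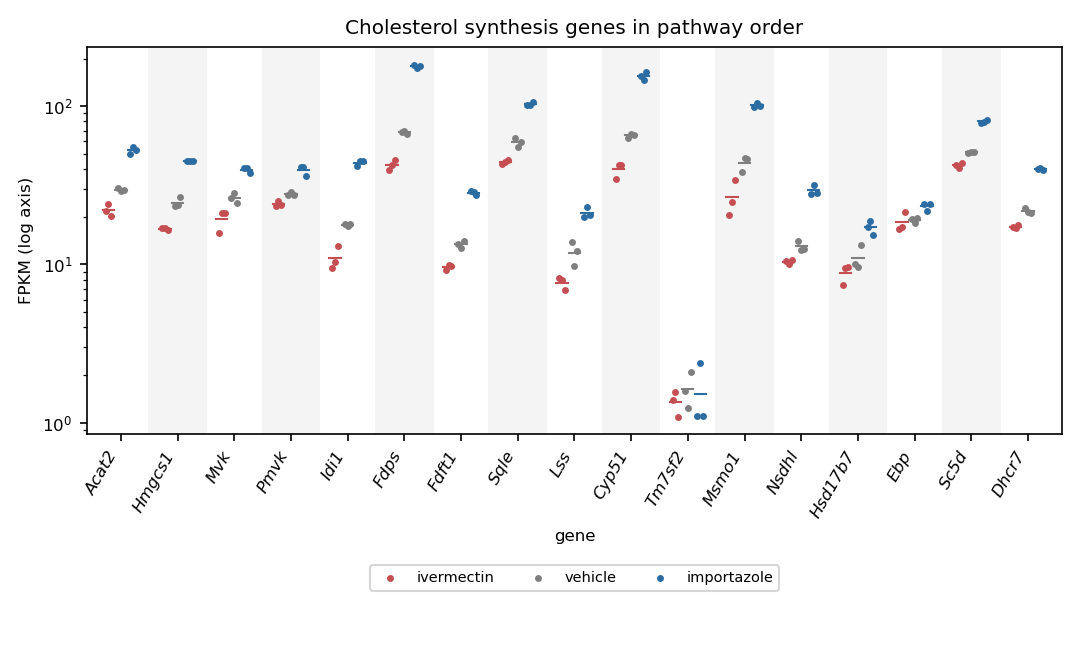
FPKM on a log axis for 17 of the 19 cholesterol synthesis genes tested, in pathway order, with 1 point per library, a bar at each group's mean and 3 libraries per group. In 16 of these 17 genes all importazole points lie above all vehicle points, and in 14 of the 17 all ivermectin points lie below them. Tm7sf2 is the gene near 1 FPKM whose groups overlap.

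Across these 19 genes the median difference from vehicle was -0.428 with ivermectin and 0.788 with importazole, 2 values that share the vehicle libraries. All 3 ivermectin libraries were below vehicle in 16 of the 19 genes (12.1% of all genes tested) and all 3 importazole libraries were above it in 18 (16.7%). The branches that use farnesyl diphosphate for other products gave no calls. Of 9 genes for dolichol, ubiquinone and geranylgeranyl synthesis and for prenylation, 0 differed by limma's test (2.68% of all genes tested). In a list of 9 genes, 0 calls is near that share and is not a result about these branches. An unadjusted p under 0.05 was reached by 0 of them (18.2% of all genes tested), and their median difference was 0.0397. The widest 95% intervals among them reached from -0.428 to 0.392.

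Genes that control sterols and take them up were lower in 6 of 18 and higher in 0, against 2.23% and 0.446% of all genes tested. Insig1 (chr5:28071363-28078662, plus strand), which encodes the protein that holds SCAP in the endoplasmic reticulum and is itself an SREBP target, had 40.8, 39.7 and 39.5 FPKM with ivermectin, 54.5, 50.4 and 54.2 FPKM in vehicle and 113, 117 and 121 FPKM with importazole. Its importazole libraries stood far above the other 6. The difference was -1.52 (SE 0.06, adjusted p = 3.78e-06). Srebf2, the gene of SREBP-2, had 35.02, 37.1 and 31.8 FPKM with ivermectin and 59.7, 67.98 and 60.7 FPKM with importazole, without overlap. Its difference was -0.84 (SE 0.08, adjusted p = 0.000887). Srebf1, the gene of the related SREBP-1, had overlapping levels of 65.8 to 83.8 and 74.5 to 89.8 FPKM and a difference of -0.12 (95% interval -0.35 to 0.11). Scap differed by -0.03 (95% interval -0.22 to 0.16) and did not pass either.

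For uptake and transfer, Stard4, a carrier that moves cholesterol between membranes, had 7.87, 10.6 and 11.5 FPKM with ivermectin and 22.2, 24.5 and 30.3 FPKM with importazole. These ranges were apart, with a difference of -1.28 (SE 0.15, adjusted p = 0.00256). Scarb1, an HDL receptor, differed by -0.46 (adjusted p = 0.0132), a call lost without importazole replicate 1 or 2 (adjusted p up to 0.0805). Nr1h2, the gene of the oxysterol receptor LXRβ, differed by -0.41 (adjusted p = 0.0391) and lost its call without each of the 6 libraries in turn (adjusted p up to 0.156). Abca1, the cholesterol exporter and a target of LXR, pointed the other way, with 10.5, 9.54 and 9.03 FPKM with ivermectin and 6.98, 7.46 and 8.23 FPKM with importazole, but its difference of 0.32 (95% interval 0.11 to 0.53) did not pass (adjusted p = 0.114).

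The promoter of Hmgcs1 is shown because it carries both motifs searched for in this pathway. The stretch is the 250 bases before the RefSeq start of the gene (chr13:119690101-119690350, plus strand, GRCm38.p6), written 5′ to 3′ on the gene's strand. Capitals mark TCACNCCAC, the classical sterol regulatory element, and CCAAT, the box bound by the factor NF-Y, each on either strand.
Hmgcs1: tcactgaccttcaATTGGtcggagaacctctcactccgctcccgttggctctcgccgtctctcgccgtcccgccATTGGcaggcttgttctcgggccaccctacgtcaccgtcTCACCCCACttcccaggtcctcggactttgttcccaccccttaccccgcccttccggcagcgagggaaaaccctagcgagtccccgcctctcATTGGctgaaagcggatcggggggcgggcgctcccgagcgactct

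In this stretch TCACNCCAC was found once and CCAAT on the reverse strand, as ATTGG. The same windows were searched for all genes tested with an entry in the RefSeq table, 10693 promoters of 8319 genes. CCAAT was in 13 of the 17 promoters (76.5%) of 14 cholesterol synthesis genes and in 36.0% of all those promoters. TCACNCCAC was in 1 of the 17, that of Hmgcs1, and in 1% of all. These are matches of letters in a fixed window and show no binding.

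Fatty acid synthesis was also lower with ivermectin, in 11 of 19 genes tested and with 0 higher, at a median difference of -0.508. Over all genes tested, 2.23% were lower and 0.446% higher. Acly, which makes cytosolic acetyl-CoA from citrate, had 51.9, 50.8 and 47.8 FPKM with ivermectin, 59.1, 60.2 and 53.2 FPKM in vehicle and 94.97, 93.9 and 94.4 FPKM with importazole. The importazole libraries stood apart above the other 6, and the difference was -0.90 (SE 0.06, adjusted p = 8.09e-05). Fasn, the fatty acid synthase, had 88.2, 91.3 and 71.8 FPKM with ivermectin and 136, 158 and 148 FPKM with importazole. Its difference was -0.81 (SE 0.10, adjusted p = 0.00348). Scd2, the main desaturase by level among the Scd genes measured, had 261, 265 and 261 FPKM with ivermectin and 395, 446 and 434 FPKM with importazole, with a difference of -0.69 (SE 0.07, adjusted p = 0.000802). The vehicle libraries, at 269.8 to 275 FPKM, lay just above those of ivermectin.

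Acss2, which activates acetate, the desaturases Fads1 and Fads2, the elongase Elovl1 and the citrate carrier Slc25a1 differed by -0.73, -0.50, -0.63, -0.54 and -0.51. Slc25a1 lost its call without importazole replicate 2 (adjusted p = 0.0564), and Scd1, at 2 FPKM or less in each of the 6 libraries, lost it without any of 5 of them (adjusted p up to 0.139). Acaca, which encodes the acetyl-CoA carboxylase that commits carbon to fatty acids, had overlapping levels, with means of 18.8 ± 0.335 FPKM with ivermectin and 20.3 ± 1.41 FPKM with importazole (SD, n = 3), and a difference of -0.10 (95% interval -0.27 to 0.06). The malic enzyme gene Me1 did not pass either (adjusted p = 0.302). Across the list, all 3 importazole libraries lay above vehicle in 14 of 19 genes (16.7% of all genes tested). All 3 ivermectin libraries lay below it in 7 (12.1%). In glycerolipid synthesis 1 of 12 genes differed (2.68% of all genes tested), the phosphatidylethanolamine enzyme gene Pcyt2. Its levels were 57.9, 57.2 and 57.9 FPKM with ivermectin and 99.7, 97.7 and 102 FPKM with importazole. The difference was -0.78 (SE 0.06, adjusted p = 0.000133). Acss2 and Elovl1 share exon sequence with genes on the opposite strand, as does Srebf1.

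Genes known to be induced by low oxygen formed the second large group. Outside glycolysis, 19 of 31 tested were lower with ivermectin and 0 were higher, against 2.23% and 0.446% of all genes tested, with a median difference of -0.578. The number lower was 17, 16 and 19 without ivermectin replicate 1, 2 or 3. It was 14, 15 and 14 without importazole replicate 1, 2 or 3, and 13 with no filter on low levels. Here the importazole libraries stayed near vehicle: the median difference of the list from vehicle was 0.0101 with importazole and -0.495 with ivermectin. All 3 ivermectin libraries were below vehicle in 24 of the 31 genes (12.1% of all genes tested). All 3 importazole libraries were above it in 5 (16.7%) and below it in 2 (6.91%).

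Bnip3 (chr7:138890836-138909519, minus strand), a mitochondrial outer membrane protein that recruits autophagosomes, had 10.3, 9.30 and 10.2 FPKM with ivermectin, 43.3, 41.3 and 40.3 FPKM in vehicle and 46.4, 41.6 and 41.8 FPKM with importazole. The ivermectin libraries were far below both other groups, whose ranges overlapped. The difference was -2.02 (SE 0.08, adjusted p = 3.78e-06). Its relative Bnip3l had 30.8, 27.7 and 30.003 FPKM with ivermectin and 53.95, 63.4 and 45.4 FPKM with importazole, and the difference was -0.85 (SE 0.11, adjusted p = 0.00536). Pdk1, the kinase that turns off pyruvate dehydrogenase, had 33.7, 25.02 and 26.7 FPKM with ivermectin and 57.4, 71.7 and 54.7 FPKM with importazole. Importazole replicate 2 was the highest library, the groups were apart, and the difference was -1.08 (SE 0.13, adjusted p = 0.00325). Higd1a, a small inner membrane protein, differed by -0.76 (adjusted p = 0.00132).

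The prolyl hydroxylase genes Egln3 and Egln1 were lower. Egln3 (chr12:54178981-54203860, minus strand) had 6.09, 5.27 and 5.56 FPKM with ivermectin, 21.6, 21.9 and 22.4 FPKM in vehicle and 22.8, 22.97 and 22.2 FPKM with importazole. The vehicle and importazole libraries were close to each other and the ivermectin libraries were apart from both. The difference was -1.83 (SE 0.08, adjusted p = 6.2e-06). Egln1 had 33.3, 33.1 and 33.1 FPKM with ivermectin and 59.8, 58.4 and 58.3 FPKM with importazole, a difference of -0.81 (SE 0.06, adjusted p = 0.000131). The genes of the HIF subunits and of their degradation gave no calls. Hif1a had 37.1, 41.9 and 49.1 FPKM with ivermectin and 41.7, 36.6 and 40.04 FPKM with importazole, with a difference of 0.10 (95% interval -0.13 to 0.34). Epas1 (HIF-2α), Arnt (HIF-1β) and Vhl differed by -0.05, 0.04 and -0.05. By limma's test 0 of 10 genes of this machinery differed and 2 had an unadjusted p under 0.05, beside 2.68% and 18.2% of all genes tested. Both counts are near those shares and do not set this list apart from other genes. Their widest 95% intervals reached from -0.506 to 0.339. RNA levels do not show the amount or location of the proteins.

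Transport and secreted members followed. Slc16a3 (chr11:120948480-120960868, plus strand), the lactate exporter MCT4, had 36.4, 41.7 and 35.2 FPKM with ivermectin, 114, 129 and 108 FPKM in vehicle and 108, 122 and 114 FPKM with importazole. The ivermectin libraries alone were low. The difference was -1.58 (SE 0.08, adjusted p = 1.64e-05). Adm, the vasodilator peptide adrenomedullin, had 28.99, 29.9 and 26.3 FPKM with ivermectin and 62.5, 59.4 and 54.6 FPKM with importazole, a difference of -1.02 (SE 0.08, adjusted p = 0.000194). Ndrg1, Ddit4 and the repressor gene Bhlhe40 differed by -1.13, -0.98 and -1.12 (adjusted p = 0.00156, 0.00233 and 0.000793). Vegfa, the angiogenic factor, had 40.8, 27.4 and 30.7 FPKM with ivermectin and 49.2, 45.7 and 46.6 FPKM with importazole. Its groups did not overlap, but ivermectin replicate 1 lay above the others of its group and the difference of -0.52 missed the threshold (adjusted p = 0.0748).

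Among enzymes of collagen and chromatin, P4ha1, the α subunit of collagen prolyl hydroxylase, had 9.81, 10.1 and 9.70 FPKM with ivermectin and 15.8, 17.4 and 17.1 FPKM with importazole, a difference of -0.71 (SE 0.07, adjusted p = 0.00134). P4ha2 differed by -0.40 and lost its call without any 1 importazole library (adjusted p up to 0.0738). The histone demethylase gene Kdm3a differed by -0.58 (adjusted p = 0.00877) and lost its call without importazole replicate 1 or 3 (adjusted p up to 0.0553). Jmjd6 and Ankrd37, which share exon sequence with genes on the opposite strand, differed by -0.59 and -0.92. Ankrd37 lay below 5 FPKM and kept its call only without ivermectin replicate 3 (adjusted p up to 0.123 without the others).

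Promoters of 3 genes of these groups are shown because they hold the core to which HIF-1 binds, ACGTG or GCGTG, within 250 bases before the RefSeq start. Capitals mark either core on either strand. The stretches are chr12:54203875-54204124, minus strand (Egln3), chr10:59323046-59323295, plus strand (P4ha1) and chr7:46845554-46845803, plus strand (Ldha), in GRCm38.p6, each written 5′ to 3′ on the gene's strand.
Egln3: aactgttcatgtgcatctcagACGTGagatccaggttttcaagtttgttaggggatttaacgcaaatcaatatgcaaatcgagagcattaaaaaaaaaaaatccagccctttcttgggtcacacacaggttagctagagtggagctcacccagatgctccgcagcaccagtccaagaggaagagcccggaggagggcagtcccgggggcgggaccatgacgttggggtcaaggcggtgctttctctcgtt
P4ha1: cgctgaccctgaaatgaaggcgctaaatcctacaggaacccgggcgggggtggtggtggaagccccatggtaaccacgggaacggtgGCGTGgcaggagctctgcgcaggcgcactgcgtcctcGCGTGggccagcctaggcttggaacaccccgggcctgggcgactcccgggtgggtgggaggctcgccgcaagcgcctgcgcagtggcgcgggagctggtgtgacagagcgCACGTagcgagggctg
Ldha: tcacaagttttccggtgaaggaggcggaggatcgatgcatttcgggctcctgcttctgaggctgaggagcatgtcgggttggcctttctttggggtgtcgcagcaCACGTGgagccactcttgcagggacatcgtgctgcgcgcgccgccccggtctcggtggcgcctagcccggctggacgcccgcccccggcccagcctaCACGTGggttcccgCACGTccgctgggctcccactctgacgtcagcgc

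Egln3 has a single match, P4ha1 has matches to both cores, and Ldha has ACGTG within CACGTG, a palindrome that many helix-loop-helix factors bind. ACGTG was found in 16 of 32 promoters (50.0%) of the hypoxia-inducible list and in 17 of 46 (37.0%) of the glycolysis list, against 22.3% of promoters of genes tested. GCGTG was found in 19 of the 32 (59.4%) and 22 of the 46 (47.8%), against 46.3%. The cores are short, can overlap each other, and are frequent by composition, and a match shows no binding.

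Glycolysis was lower with ivermectin in 13 of 30 genes, with 0 higher and a median difference of -0.337. Over all genes tested, 2.23% were lower and 0.446% higher. Slc2a1, the glucose transporter GLUT1, had 26.2, 24.9 and 24.5 FPKM with ivermectin, 50.4, 51.7 and 50.6 FPKM in vehicle and 51.8, 54.9 and 50.8 FPKM with importazole. The vehicle and importazole ranges overlapped above those of ivermectin, and the difference was -1.03 (SE 0.07, adjusted p = 7.39e-05). Hk2, an inducible hexokinase, had 18.1, 19.5 and 16.1 FPKM with ivermectin and 25.6, 26.1 and 26.6 FPKM with importazole, a difference of -0.52 (adjusted p = 0.0119) that did not pass without any 1 importazole library (adjusted p up to 0.0608). Hk1 and Gpi1 differed by -0.45 and -0.39, and lost their calls without 5 and 6 of the 6 libraries, each left out in turn (adjusted p up to 0.175 and 0.199).

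Isoenzymes of a single step had different values. Among the phosphofructokinases, Pfkl, the liver form, had 24.3, 24.2 and 17.5 FPKM with ivermectin and 52.4, 47.5 and 38.4 FPKM with importazole, a difference of -1.04 (SE 0.15, adjusted p = 0.00717). Pfkm, the muscle form, had 73.8, 76.9 and 74.5 FPKM with ivermectin and 65.98, 68.5 and 65.1 FPKM with importazole, and its difference of 0.17 did not pass (95% interval 0.04 to 0.31). Pfkp, the platelet form, had 67.98, 73.7 and 61.5 FPKM with ivermectin and 93.1, 85.1 and 82.8 FPKM with importazole. The ivermectin libraries were all lower, but the difference of -0.36 (95% interval -0.54 to -0.17) did not pass (adjusted p = 0.0617). The 95% intervals of Pfkl (-1.37 to -0.70) and Pfkm do not overlap, and the difference between the genes was not itself tested. Ldha, which encodes the lactate dehydrogenase subunit that favours lactate formation, had 1263, 1295 and 1204 FPKM with ivermectin, 1883, 1885 and 1877 FPKM in vehicle and 1894, 2087 and 1871 FPKM with importazole. All 3 ivermectin libraries were lowest, and the difference was -0.64 (SE 0.07, adjusted p = 0.00185). Ldhb, the heart-type subunit, had 267, 275 and 299 FPKM with ivermectin and 257, 261 and 249 FPKM with importazole, a difference of 0.13 (95% interval -0.02 to 0.28) that did not pass. Eno3, the muscle enolase, differed by 0.12 (95% interval -0.01 to 0.25), and Eno1, the ubiquitous form, by -0.32 (95% interval -0.53 to -0.10), and neither passed.

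In the lower part of the pathway, Aldoc had 15.5, 16.3 and 15.7 FPKM with ivermectin, 26.8, 26.8 and 26.03 FPKM in vehicle and 39.8, 40.6 and 32.2 FPKM with importazole. For this aldolase the importazole libraries were above vehicle and the ivermectin libraries below it, and the difference was -1.19 (SE 0.09, adjusted p = 0.000236). Aldoa, Tpi1 and Pgk1, which are among the abundant transcripts of the cell, differed by -0.66, -0.58 and -0.59 (adjusted p = 0.00335, 0.00348 and 0.00127). Pgk1 had 234, 249.6 and 233 FPKM with ivermectin and 355, 365 and 357 FPKM with importazole. Gapdh and Pkm had lower values in all 3 ivermectin libraries but did not pass (differences of -0.30 and -0.43, adjusted p = 0.0547 and 0.0791). The number of lower glycolysis genes was 8 without any 1 importazole library and 7 with no filter on low levels. Processed copies of several of these genes exist in the genome. Hk1, Aldoa, Tpi1, Gapdh, Pfkm and Pfkp overlap genes on the opposite strand. The levels of these genes are uncertain to that extent.

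**Figure D3:**
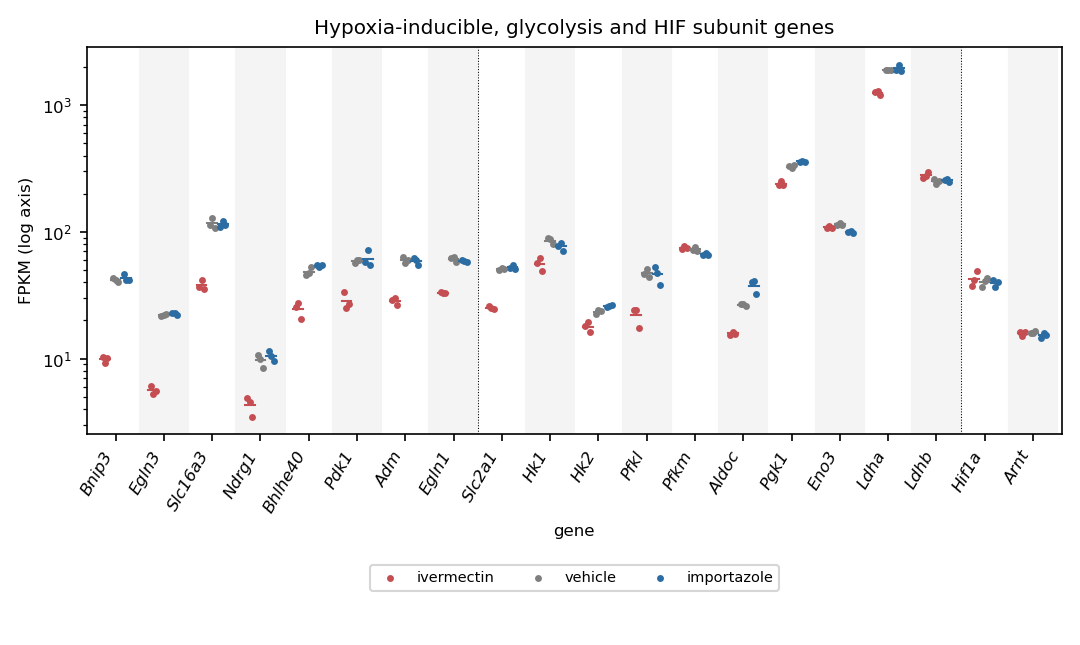
FPKM on a log axis for 8 hypoxia-inducible genes (left of the first dotted line), 10 glycolysis genes (between the lines) and the HIF subunit genes Hif1a and Arnt (right), with 1 point per library, a bar at each group's mean and 3 libraries per group. For Bnip3, Egln3 and Slc16a3 the ivermectin points lie apart below both other groups, while for Pfkm, Eno3, Ldhb, Hif1a and Arnt they do not.

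Tfrc (chr16:32608920-32632794, plus strand), the transferrin receptor that brings iron into cells, was the 1 gene of 16 in the iron list that differed (2.68% of all genes tested). Its levels were 13.9, 11.97 and 13.8 FPKM with ivermectin, 34.4, 30.9 and 31.5 FPKM in vehicle and 36.7, 37.2 and 44.8 FPKM with importazole. The ivermectin libraries were at less than 15 FPKM and all other libraries above 30 FPKM. The difference was -1.51 (SE 0.10, adjusted p = 7.43e-05). The ferritin genes Fth1 and Ftl1 differed by 0.01 (95% interval -0.12 to 0.15) and -0.22 (95% interval -0.40 to -0.03). The iron exporter gene Slc40a1 and the iron regulatory protein genes Aco1 and Ireb2 differed by 0.08, -0.11 and 0.00, and none of these 5 passed.

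Transcripts of the mitochondrial genome were the main group higher with ivermectin. Of the 13 mRNAs, which encode core subunits of the respiratory chain and ATP synthase, 9 were higher and 0 lower, at a median difference of 0.521. Over all genes tested, 0.446% were higher and 2.23% lower. For these mRNAs it was the importazole libraries that stood off vehicle: all 3 were below it in 10 of 13 (6.91% of all genes tested). The list's median difference from vehicle was -0.448 with importazole and 0.0567 with ivermectin. mt-Co2, subunit 2 of cytochrome c oxidase, had 1349, 1492 and 1758 FPKM with ivermectin, 1452, 1224 and 1369 FPKM in vehicle and 810.4, 909.9 and 986 FPKM with importazole. The importazole libraries lay below the other 6, and the difference was 0.76 (SE 0.11, adjusted p = 0.00762). mt-Nd3, of complex I, had 158, 159.8 and 207 FPKM with ivermectin and 108, 92.7 and 97.1 FPKM with importazole, a difference of 0.80 (SE 0.11, adjusted p = 0.00622). mt-Cytb, of complex III, had 816, 897 and 916 FPKM with ivermectin and 511, 577 and 633 FPKM with importazole. Its groups did not overlap and differed by 0.61 (SE 0.09, adjusted p = 0.00789).

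The 12S ribosomal RNA, mt-Rnr1 (chrM:70-1024, plus strand), had 1194, 1408 and 1388 FPKM with ivermectin, 769, 853 and 1198 FPKM in vehicle and 894, 594 and 699.6 FPKM with importazole. Both compounds' libraries overlapped the wide vehicle range at 1 end, and the difference between compounds was 0.88 (SE 0.14, adjusted p = 0.0118). This call was lost without ivermectin replicate 2 or importazole replicate 3 (adjusted p up to 0.0603). The 16S RNA mt-Rnr2 differed by 0.83 and did not pass (adjusted p = 0.0979). As the libraries were made from poly(A) RNA, ribosomal RNA levels also depend on the capture. The mRNAs mt-Co3, mt-Atp8, mt-Nd5 and mt-Nd6 did not pass, with differences of 0.63, 0.70, 0.21 and 0.18 (adjusted p = 0.0559, 0.0561, 0.303 and 0.462).

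Fewer of these calls held when 1 library was left out than for cholesterol synthesis, where 17 or 18 genes passed each time. The number of mitochondrial mRNAs that passed was 9 without ivermectin replicate 1 or 3, 3 without ivermectin replicate 2, importazole replicate 1 or importazole replicate 2, and 5 without importazole replicate 3. It was 0 with no filter on low levels, 5 without the trend and robust terms of limma, and 9 to 11 under the scalings, pseudocounts and other filter tried, with all 13 differences above 0. mt-Nd3 and mt-Co2 kept their calls without each of the 6 libraries in turn. The nuclear genome near-copies of mitochondrial genes can share fragments with them, and genes on opposite strands of the mitochondrial genome overlap.

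Nuclear genes of the same complexes gave no calls. Of 51 nuclear-encoded respiratory chain and ATP synthase genes, 0 differed by limma's test and 5 had an unadjusted p under 0.05, with a median difference of 0.0498. Of 12 genes for mitochondrial transcription, RNA processing and translation, 0 differed and 3 had an unadjusted p under 0.05. Over all genes tested, 0.446% were higher, 2.23% lower and 18.2% had an unadjusted p under 0.05. With shares this small, 0 calls does not set these 2 lists apart from other genes. The mitochondrial transcription factor gene Tfam differed by 0.02 (95% interval -0.24 to 0.27) and the polymerase gene Polrmt by 0.26 (95% interval 0.02 to 0.51). Slc25a33, which carries pyrimidine nucleotides into mitochondria, was higher with ivermectin, at 14.1, 14.97 and 15.7 FPKM beside 10.02, 9.85 and 9.07 FPKM with importazole and 5.77, 6.33 and 5.54 FPKM in vehicle. Both compounds' libraries lay above vehicle, and the difference between them was 0.58 (SE 0.08, adjusted p = 0.00581).

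**Figure D4:**
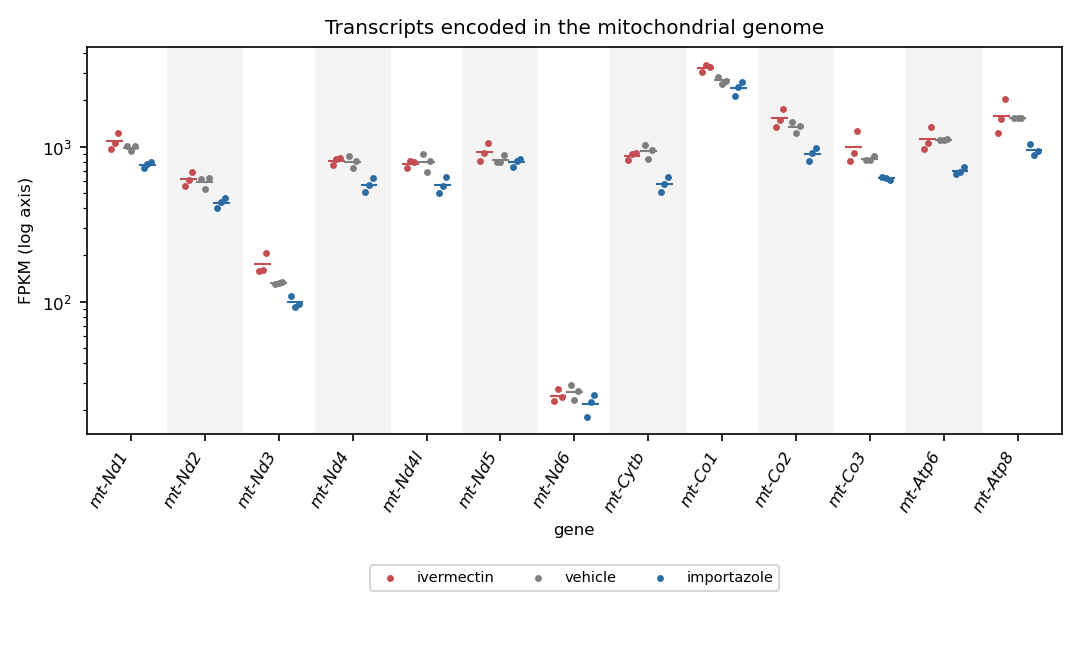
FPKM on a log axis for the 13 mRNAs of the mitochondrial genome, with 1 point per library, a bar at each group's mean and 3 libraries per group. In 10 of the 13 all importazole points lie below all vehicle points, and in 11 of the 13 all ivermectin points lie above all importazole points.

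Calls among other genes of mitochondrial fuel use were few. Cpt2, the inner membrane carnitine transferase that admits long-chain fatty acids to oxidation, was higher with ivermectin, at 39.1, 39.2 and 38.4 FPKM against 26.2, 25.9 and 28.1 FPKM with importazole. The vehicle libraries, at 34.5, 35.2 and 36.04 FPKM, lay between the compounds, and the difference was 0.53 (SE 0.07, adjusted p = 0.00358). Acsl1, which activates fatty acids, was lower, with a difference of -0.38 (adjusted p = 0.0244). These were the 2 called of 23 fatty acid oxidation genes, beside 0.446% higher and 2.23% lower of all genes tested. In the citrate cycle 1 of 19 differed, the 2-oxoglutarate dehydrogenase gene Ogdh, by 0.31 (adjusted p = 0.0499). An unadjusted p under 0.05 was reached by 5 of the 23 and 6 of the 19, beside 18.2% of all genes tested. Differences were above 0 in 17 of the 23 and 17 of the 19, at medians of 0.0759 and 0.139. Acsl1 and Ogdh each lost their call without any of 5 of the 6 libraries (adjusted p up to 0.102 and 0.169).

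The amino acid response, the programme that ATF4 drives when amino acids are short or the endoplasmic reticulum is stressed, lay above vehicle with both compounds and differed between them in few members. All 3 ivermectin libraries were above vehicle in 38 of 42 genes (12.6% of all genes tested) and all 3 importazole libraries in 38 (16.7%). The median differences from vehicle were 0.688 and 0.585. Directly compared, 4 of 42 were higher with ivermectin and 0 lower, against 0.446% and 2.23% of all genes tested, at a median difference of 0.147. Fgf21, a secreted hormone, had 5.03, 4.78 and 4.14 FPKM with ivermectin, 0.440, 0.637 and 0.567 FPKM in vehicle and 2.90, 2.23 and 2.18 FPKM with importazole. The 3 groups were apart, and the compounds differed by 0.72 (SE 0.12, adjusted p = 0.0130). Trib3, a pseudokinase, had 52.2, 50.4 and 52.3 FPKM with ivermectin, 12.2, 11.6 and 13.02 FPKM in vehicle and 41.98, 38.2 and 39.1 FPKM with importazole, a difference of 0.37 (SE 0.06, adjusted p = 0.0207) between the compounds. Mthfd2, of mitochondrial one-carbon metabolism, and Aldh18a1, of proline synthesis, differed by 0.37 and 0.37 (adjusted p = 0.0233 and 0.0460).

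Atf4 itself had 146, 156 and 167 FPKM with ivermectin and 163, 148 and 147 FPKM with importazole, which overlapped, beside 82.4, 72.6 and 84.1 FPKM in vehicle. Its difference was 0.04 (95% interval -0.13 to 0.20). Asns, Phgdh and Psat1, for asparagine and serine synthesis, differed by 0.28 (95% interval 0.05 to 0.50), 0.05 (-0.09 to 0.19) and 0.03 (-0.10 to 0.16). The 4 calls were not stable: 0 passed without ivermectin replicate 2, without importazole replicate 2 or with no filter on low levels, 1 passed without ivermectin replicate 1 or importazole replicate 3, and 2 passed without importazole replicate 1 or without the trend and robust terms. Of 23 genes of the unfolded protein response, 0 differed by limma's test and 6 had an unadjusted p under 0.05, beside 2.68% and 18.2% of all genes tested.

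The sarcomere, cardiac transcription factor and calcium handling lists held 2 called genes each, beside 2.68% of all genes tested (0.446% higher and 2.23% lower). Calls this few are given by gene and are not a result about the heart muscle programme. Mybpc3, the thick filament protein myosin-binding protein C, had 114, 118 and 109 FPKM with ivermectin, 172, 172 and 158 FPKM in vehicle and 157, 171 and 162 FPKM with importazole. The ivermectin libraries lay below the other 6, and the difference was -0.52 (SE 0.06, adjusted p = 0.00374). It was 1 of 2 sarcomere genes called of 26. The second was Tnnt2, cardiac troponin T, at -0.41 (adjusted p = 0.0430). Of 13 cardiac transcription factors, Nkx2-5 and Srf were lower, by -0.39 and -0.45 (adjusted p = 0.0394 and 0.0170). In calcium handling 2 of 24 genes differed. Sln, which encodes the calcium pump inhibitor sarcolipin, had 1.41, 0.742 and 0.440 FPKM with ivermectin and 3.27, 3.06 and 3.16 FPKM with importazole, a difference of -1.19 (adjusted p = 0.00855) that was lost without importazole replicate 1 (adjusted p = 0.0515). Sln met the filter of 1 FPKM through the importazole libraries, where it is higher. Cacna2d1, a calcium channel subunit, was higher with ivermectin by 0.38 (adjusted p = 0.0446).

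The calls of Tnnt2, Nkx2-5, Srf and Cacna2d1 were each lost without at least 4 of the 6 libraries in turn, with adjusted p-values up to 0.182, 0.147, 0.0894 and 0.172. Mybpc3 kept its call without each library. Myh6, the main myosin heavy chain of the adult mouse heart, had 494, 537 and 443 FPKM with ivermectin and 515, 523 and 507 FPKM with importazole, overlapping, beside 677, 699 and 620.1 FPKM in vehicle, and its difference was -0.07 (95% interval -0.25 to 0.10). The natriuretic peptide gene Nppa had 174, 173 and 229 FPKM with ivermectin, where replicate 3 was highest, and 260.2, 238 and 252 FPKM with importazole. Its difference of -0.39 did not pass (adjusted p = 0.103). The calcium pump gene Atp2a2 and the release channel gene Ryr2 differed by 0.04 (95% interval -0.11 to 0.19) and -0.15 (-0.33 to 0.02).

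The import machinery itself, the shared laboratory target of the compounds, gave no calls at the RNA level. Of 17 import receptor genes, 0 differed by limma's test and 3 had an unadjusted p under 0.05, at a median difference of -0.0406. Kpnb1, the gene of importin-β, had 72.9, 80.8 and 77.9 FPKM with ivermectin and 85.1, 90.1 and 82.2 FPKM with importazole. The libraries of the compounds did not overlap, but the gap was small, with a difference of -0.15 (95% interval -0.30 to 0.00, adjusted p = 0.284). The importin α genes Kpna1, Kpna2, Kpna3, Kpna4 and Kpna6 differed by 0.03, -0.04, 0.00, 0.09 and -0.04. The widest 95% intervals among the 17 reached from -0.44 to 0.39. Of 13 export and Ran cycle genes 0 differed and 1 had an unadjusted p under 0.05, and of 22 nucleoporin genes 0 differed and 3 had an unadjusted p under 0.05. Over all genes tested, 2.68% differed and 18.2% had an unadjusted p under 0.05. In lists of 13 to 22 genes, 0 calls is near that share and is not a result about these genes.

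Smaller groups held few called genes, beside 0.446% higher and 2.23% lower of all genes tested. A single call in a list is not a result about that list. Among immediate early genes, Fos, Jund and Ier3 were lower with ivermectin of 11 tested, by -0.72, -0.56 and -0.58 (adjusted p = 0.0287, 0.00789 and 0.00654). Fos lost its call without any of 5 of the 6 libraries (adjusted p up to 0.0957). Gadd45a, a stress-inducible gene and the 1 of 14 p53 targets that differed, had 21.6, 17.1 and 17.9 FPKM with ivermectin, 6.53, 6.17 and 8.22 FPKM in vehicle and 12.5, 10.6 and 11.6 FPKM with importazole. The 3 groups were apart, with a difference of 0.66 (SE 0.10, adjusted p = 0.0115) between compounds that was lost without importazole replicate 2 or 3 (adjusted p up to 0.0600). Por, which supplies electrons to cytochrome P450 enzymes, Cyp51 among them, had 43.1, 48.5 and 43.1 FPKM with ivermectin and 75.1, 70.1 and 68.7 FPKM with importazole. It differed by -0.66 (SE 0.07, adjusted p = 0.00200).

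The remaining named higher genes had differences of 0.70 for Srr (serine racemase), 0.56 for Aldh1b1 (a mitochondrial aldehyde dehydrogenase), 0.55 for Fndc5 (the precursor of irisin), 0.54 for Pyroxd2, 0.52 for Phf20 and 0.51 for Phyh (a peroxisomal hydroxylase). Aldh1b1 had 61.7, 61.2 and 58.8 FPKM with ivermectin, 63.2, 60.02 and 57.1 FPKM in vehicle and 43.5, 43.3 and 36.01 FPKM with importazole. Its importazole libraries were the low ones (adjusted p = 0.00895). Fndc5 had 22.4, 22.2 and 20.7 FPKM with ivermectin and 13.8, 15.2 and 14.8 FPKM with importazole (adjusted p = 0.00523). Srr, which overlaps Smg6 and Tsr1 on the opposite strand, and Phyh each lost their call without ivermectin replicate 2, importazole replicate 1 or importazole replicate 2 (adjusted p up to 0.0681 and 0.0759). In the lists for the proteasome (27 genes), cytosolic ribosomal proteins (49), DNA replication (23), mitosis (22), heat shock (17), NRF2 targets (16), interferon (14), NF-kB (10), lysosome and autophagy (33) and pyrimidine and purine synthesis (15), limma called 0 genes. Over all genes tested, 2.68% were called. At an unadjusted p under 0.05 these lists held 1, 1, 4, 2, 6, 4, 3, 4, 4 and 3 genes in the same order, beside 18.2% of all genes tested. Heat shock, with 6 of 17, and NF-kB, with 4 of 10, had the largest shares.

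**Figure D5:**
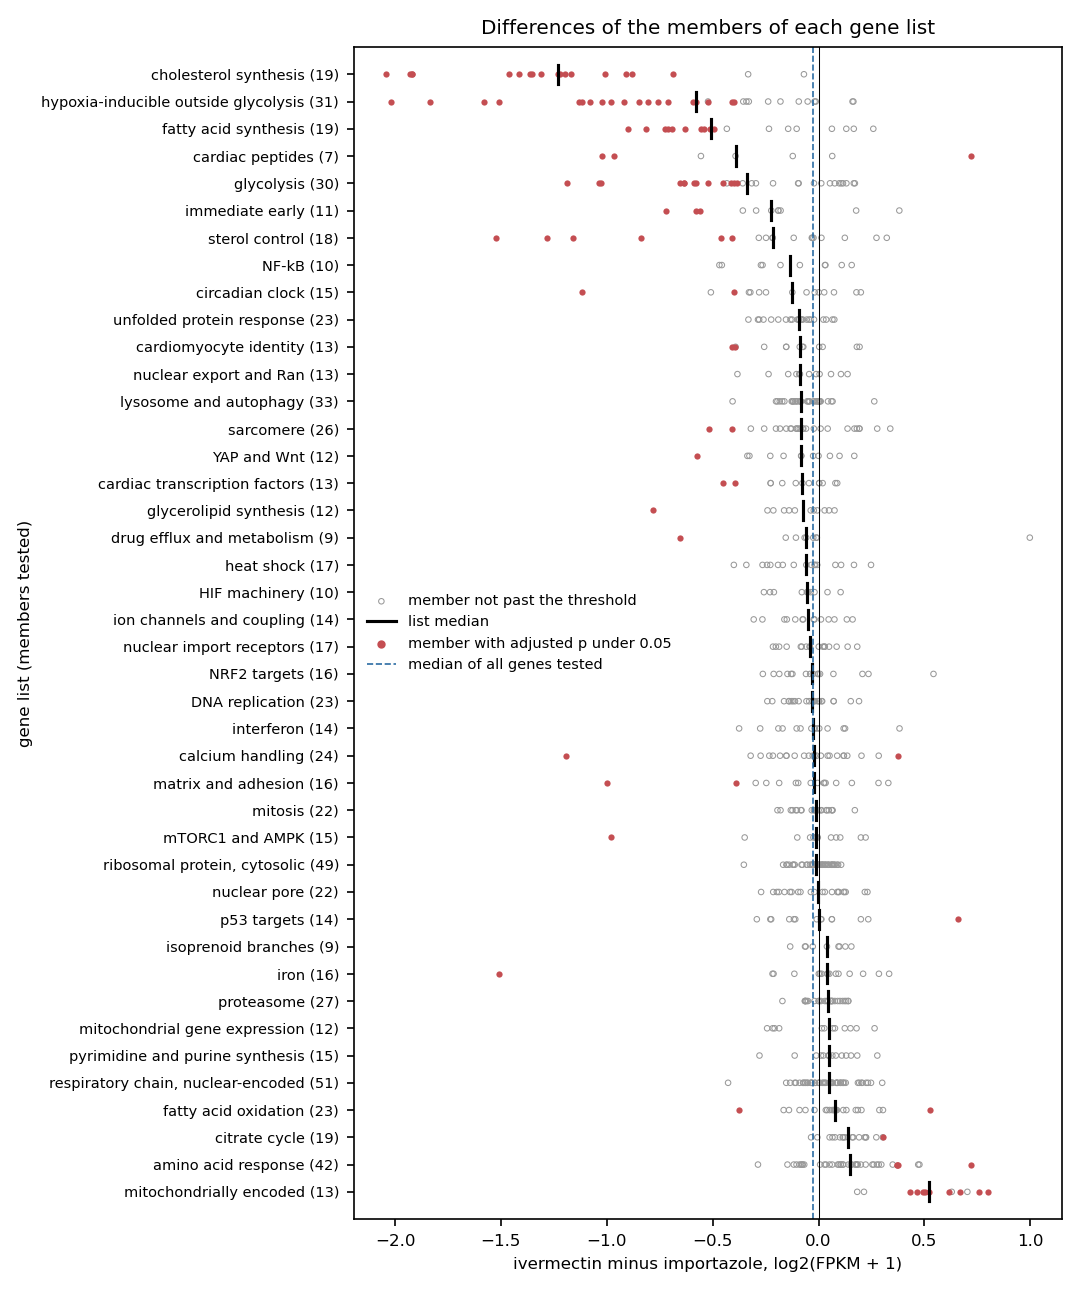
Differences between the compounds, ivermectin minus importazole in log2(FPKM + 1), for the tested members of each gene list, with the number tested in brackets. Filled points passed the threshold, open points did not, black ticks are list medians, and the dashed line is the median of all genes tested (-0.0266). The cholesterol list has the lowest median (-1.23) and the mitochondrially encoded list the highest (0.521).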

How the data were processed

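Libraries were made from messenger RNA captured on magnetic beads and were run on an Ion Proton system, per the labels' protocols. The deposited files pair a gene symbol with an FPKM value made by the authors, per the file headers. Per the submitters' processing notes, the tools were Bowtie, Bowtie2, Cufflinks and STAR (roles and versions not listed) on GRCm38 and mm10. The annotation and strand setting were not given in the sources used here. Each FPKM is relative to all fragments mapped, so 1 abundant transcript can shift the others. Reads could not be recovered, so depth is known only as a ratio between libraries and intervals for counting error could not be given.

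The files had 25230 lines each, and 48 repeated symbols (20 of them tested) were summed. Genes that reached 1 FPKM in at least 3 of the 6 libraries were fitted as log2(FPKM + 1) with limma 3.58.1 in R 4.3.3. The model had group as its only term, an intensity trend and robust empirical Bayes moderation, and p-values are two-sided with Benjamini-Hochberg adjustment over all 11203 genes. Vehicle libraries entered only the alternative fit to 9 libraries. The fit was tested on simulated data.

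The members, the gene lists, the tests and the rule for named genes were chosen with earlier results of these data known. Named genes were the 15 largest differences in each direction among genes past the threshold, without overlap between compounds and with a mean of at least 5 FPKM, leaving out predicted genes and small RNAs. Other genes named are list members or were chosen after their values were seen. Lists are described by counts and medians, with no set test. Listed genes with no entry of that symbol, Mvd among them, were not analysed here, and a few genes that enter the counts are not reported here by name. Gene locations are from GENCODE M21 on GRCm38, in which 10742 of the symbols tested matched 1 gene and 461 did not. Promoters are from RefSeq, GRCm38.p6, in which 20 of the 30 named genes had an entry. Intervals of 95% are unadjusted. Alternatives were other pseudocounts, filters and scalings, a fit to 9 libraries, the replicate number as a block, no trend, a stricter threshold and leaving out each library. Figures were drawn with matplotlib 3.10.9 in Python 3.11.15.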

Additional observations from a re-analysis of the deposited data

How the results depend on the processing

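The number of genes that differed was 300, with 50 higher and 250 lower with ivermectin. With no filter on low levels it was 105 (7 higher, 98 lower), in a larger set of genes tested. At an adjusted p under 0.01 it was 121 (10 higher, 111 lower). Higher genes numbered 105 with quantile normalization, 92 with median-of-ratios scaling, 84 in the fit to 9 libraries and 30 with the replicate number as a block. Leaving out 1 library gave 134 to 302 genes, 14 to 44 higher and 120 to 258 lower. Of 133 called genes followed by name, 115 passed with the block, 128 with a common total without Yam1, 110 without the trend and robust terms, 74 with no filter and 87 to 119 with 1 library left out. The 15 named lower genes passed under all 17 alternatives, and none of the 300 genes was called with the opposite sign under any of them. The cause of these losses was not tested, beyond the smaller sample and the larger set of genes by construction. Yam1, which did not pass with all libraries (difference -4.53), passed in the opposite direction without ivermectin replicate 3 (0.542, adjusted p = 0.0149), the library that lists it at 0. Over the fits that leave out 1 library its difference ranged from -7.13 to 0.542. The labels do not say whether equal replicate numbers share a culture. Deviations of same-numbered libraries correlated at -0.0138, 0.164 and 0.0637. Those of libraries with different numbers correlated at -0.153 to 0.0833, and ivermectin replicate 1 correlated best with importazole replicate 2 (0.0319). These values cannot settle whether the libraries are paired. With the block 234 genes passed, 30 higher and 204 lower. The depth of the libraries in reads is unknown, which limits what can be said of genes near 1 FPKM.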

Other observations

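Enzymes that break down branched-chain amino acids and propionate were not in any list described above and were chosen after their values were seen, so the values are given without a test of the group. Pcca, a subunit of propionyl-CoA carboxylase, had 12.3, 11.001 and 12.5 FPKM with ivermectin and 7.98, 8.96 and 7.56 FPKM with importazole. Its difference was 0.50 (limma adjusted p = 0.0244), and it overlaps a gene on the opposite strand. Mccc1, Acad8 and Aldh6a1, which act on leucine and valine, differed by 0.34, 0.39 and 0.47 (adjusted p = 0.0444, 0.0318 and 0.0499). The calls of all 4 were lost without at least 4 of the 6 libraries in turn (adjusted p up to 0.100, 0.167, 0.133 and 0.159). Mut, Pccb, Ivd, Bckdhb and Hibch had values in the same direction, from 0.27 for Bckdhb to 0.42 for Ivd, and did not pass. Bckdha differed by 0.02 (95% interval -0.14 to 0.18). Mmab, which prepares the cobalamin cofactor of the enzyme encoded by Mut, was lower with ivermectin, at -0.46 (adjusted p = 0.0120), a call lost without any 1 importazole library (adjusted p up to 0.0702).

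A further 4 genes chosen after their values were seen had clear gaps. Aacs, which activates acetoacetate for lipid synthesis, had 15.4, 18.1 and 16.4 FPKM with ivermectin and 35.8, 37.9 and 37.02 FPKM with importazole, a difference of -1.11 (adjusted p = 9.8e-05). Slc47a1, the MATE1 efflux transporter, had 171, 162 and 173 FPKM with ivermectin, 192, 183 and 190.5 FPKM in vehicle and 282, 289 and 276 FPKM with importazole, a difference of -0.74 (adjusted p = 0.000281). The importazole libraries were the high ones for Slc47a1. Synpo2l, an actin-associated protein of the Z disc, had 11.02, 12.4 and 9.60 FPKM with ivermectin, 22.96, 20.6 and 19.7 FPKM in vehicle and 23.3, 23.8 and 22.9 FPKM with importazole, a difference of -1.03 (adjusted p = 0.000594). Selenbp1 had 19.9, 21.5 and 21.7 FPKM with ivermectin, 57.4, 52.8 and 52.9 FPKM in vehicle and 47.7, 42.3 and 37.5 FPKM with importazole, a difference of -0.97 (adjusted p = 0.000802), and its near-identical copy Selenbp2 makes its level uncertain.

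Small RNAs gave 3 of the largest gaps. Each met the filter of 1 FPKM only through the group where it is high, so the gaps are not independent of the filter. Mir3082 had 9.42, 9.18 and 6.93 FPKM with ivermectin and was listed at 0 in all importazole and vehicle libraries. Snord91a was listed at 0 in all ivermectin libraries and had 3.93, 4.57 and 4.53 FPKM with importazole, and in vehicle it was listed at 0, 0 and 10.7 FPKM. Snord33 had 0.240, 0 and 0 FPKM with ivermectin, 2.60, 11.2 and 4.99 FPKM with importazole and 0 in all vehicle libraries. FPKM of genes this short rests on few fragments and on the length correction, and the part of that in these gaps was not tested.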
